A study of Mus with 2 samples.

Results

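The actin cytoskeleton and motility genes analysed here are a named set of 39 mouse genes, taken by symbol from the authors' deposited table of kidney cell clusters. Of these 39 genes, 38 were listed in at least 1 cluster, among 8191 distinct genes in all. Arpc1a, which encodes a subunit of the Arp2/3 complex, was not listed in any cluster and is not analysed further. Single-cell RNA sequencing had been performed on whole-kidney suspensions of C57BL/6 mice, with 1 droplet library of senescent mice and 1 of young mice. The series states 4408 cells for the senescent mice and a larger number for the young mice. The sources used here give neither ages and sexes nor the number of mice in a library or of cells in a cluster. The authors labelled their 7 clusters Marco, T, B, Neutro, PT, LOH and endo, which are kept as given. Values are the authors' scaled means per cell of a cluster.

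Actin monomers assemble into filaments whose turnover shapes the cell cortex, moves the cell and, in kidney tubule cells, builds the core of the microvilli of the brush border. Thymosin beta proteins hold a reserve of monomers, profilin feeds monomers to growing ends, and cofilin severs old filaments. The Arp2/3 complex branches new filaments from existing ones, capping proteins stop growth, and myosin II contracts the network. Leukocytes depend on this machinery to crawl and to form synapses with other cells, and several of the genes described below (Coro1a, Lcp1, Rac2, Arhgdib, Gmfg, Lsp1) are known chiefly from blood cells.

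Every entry of the table has a p-value under 0.05 and a log2 fold change of 0.36 or more in size, and nothing can be said of a gene that is absent from a cluster. Because each group has a single library, no spread between mice is known, values carry no SD and no test could be run. The adjusted p-values quoted from the authors' deposited table compare the cells of these 2 libraries, not the conditions. A lower mean can come from fewer expressing cells or from less RNA per cell, which cannot be told apart here. Markers of cell types were looked up in each cluster. A listed marker is one that differs between the libraries, so being listed or not does not show which cells a cluster holds. All 7 macrophage markers were listed in Marco, all 6 T cell markers in T and 4 of 5 B cell markers in B. Of 5 thick ascending limb markers, 1 was listed in LOH, and of 5 neutrophil markers, 2 were listed in Neutro. All of these were higher in the senescent library. Of 7 endothelial markers, 0 were listed in endo, so their levels there are not known and its label could not be checked by them. Proximal tubule markers were listed in every cluster, and their summed level was far lower in the senescent library in Marco (11.3 in senescent and 755 in young cells), T (9.83 in senescent and 601 in young cells), B (9.0 in senescent and 607 in young cells) and LOH (14.7 in senescent and 258 in young cells). In PT the summed level was 111 in senescent and 829 in young cells over 7 of 8 markers. Of these, 3 were higher in senescent cells (Lrp2, Slc27a2 and Pck1) and 4 lower (Kap, Miox, Slc34a1 and Acsm2). Kap made up most of the young sums, with young means of 719 in PT, 642 in Marco, 505 in T, 499 in B and 202 in LOH. Its senescent means were 21.4 in PT, 2.24 in Marco, 2.82 in T, 1.24 in B and 1.54 in LOH. All 8 markers were lower in Marco, T, B and LOH. The part of these marker differences in the results below was not tested.

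In the immune clusters, nearly every listed gene of the set had a higher mean in the senescent library, although most were lower once set relative to leukocyte markers, as described further on. In Marco, 37 were listed and all 37 were higher, where 58.3% of the 4462 listed genes of that cluster were higher and 41.7% lower. Of these, 36 were at least 2-fold higher, against 47.6% of all listed genes, and Myl6 was the exception. In T, 34 were listed and all 34 were higher (45.4% of all listed genes), 27 of them at least 2-fold (26.2% of all). In B, 26 of 27 were higher (28.3% of all listed genes) and Myl6 was lower (71.7% of all were lower), and 19 were at least 2-fold higher (16.3% of all). In the authors' deposited table, an adjusted p of at most 0.05 was reached by 36 of the 37 in Marco (49.4% of all listed genes), by 18 of the 34 in T (31% of all) and by 4 of the 27 in B (19.7% of all).

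In the epithelial clusters fewer genes of the set were listed, and in PT they went both ways. In PT, 13 of 17 listed genes were higher (78.4% of all listed genes) and 4 were lower (21.6% of all). At least 2-fold higher were 7 (57.2% of all), and at least 2-fold lower was 1, Tmsb10 (5.6% of all). All 17 passed by adjusted p in the authors' deposited table, as did 5035 of the 5037 genes listed there (100%). In LOH, 9 of 10 were higher (47.8% of all) and 1 was lower (52.2% of all), 4 were at least 2-fold higher (27.5% of all), and 3 passed by adjusted p in the authors' deposited table (14.7% of all). In endo, 3 of 4 were higher (48.8% of all) and 1 was lower (51.2% of all), 2 were at least 2-fold higher (41.9% of all) and 1 at least 2-fold lower (33.1% of all), and 0 passed by adjusted p in the authors' deposited table (0.984% of all). In Neutro, Tmsb4x was the single gene of the set that was listed, and it was higher (6.35% of all) but not by 2-fold (5.29% of all were, and 93.4% were at least 2-fold lower). In the authors' deposited table it did not pass by adjusted p, nor did any of the 378 genes listed there (0%).

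**Figure D1:**
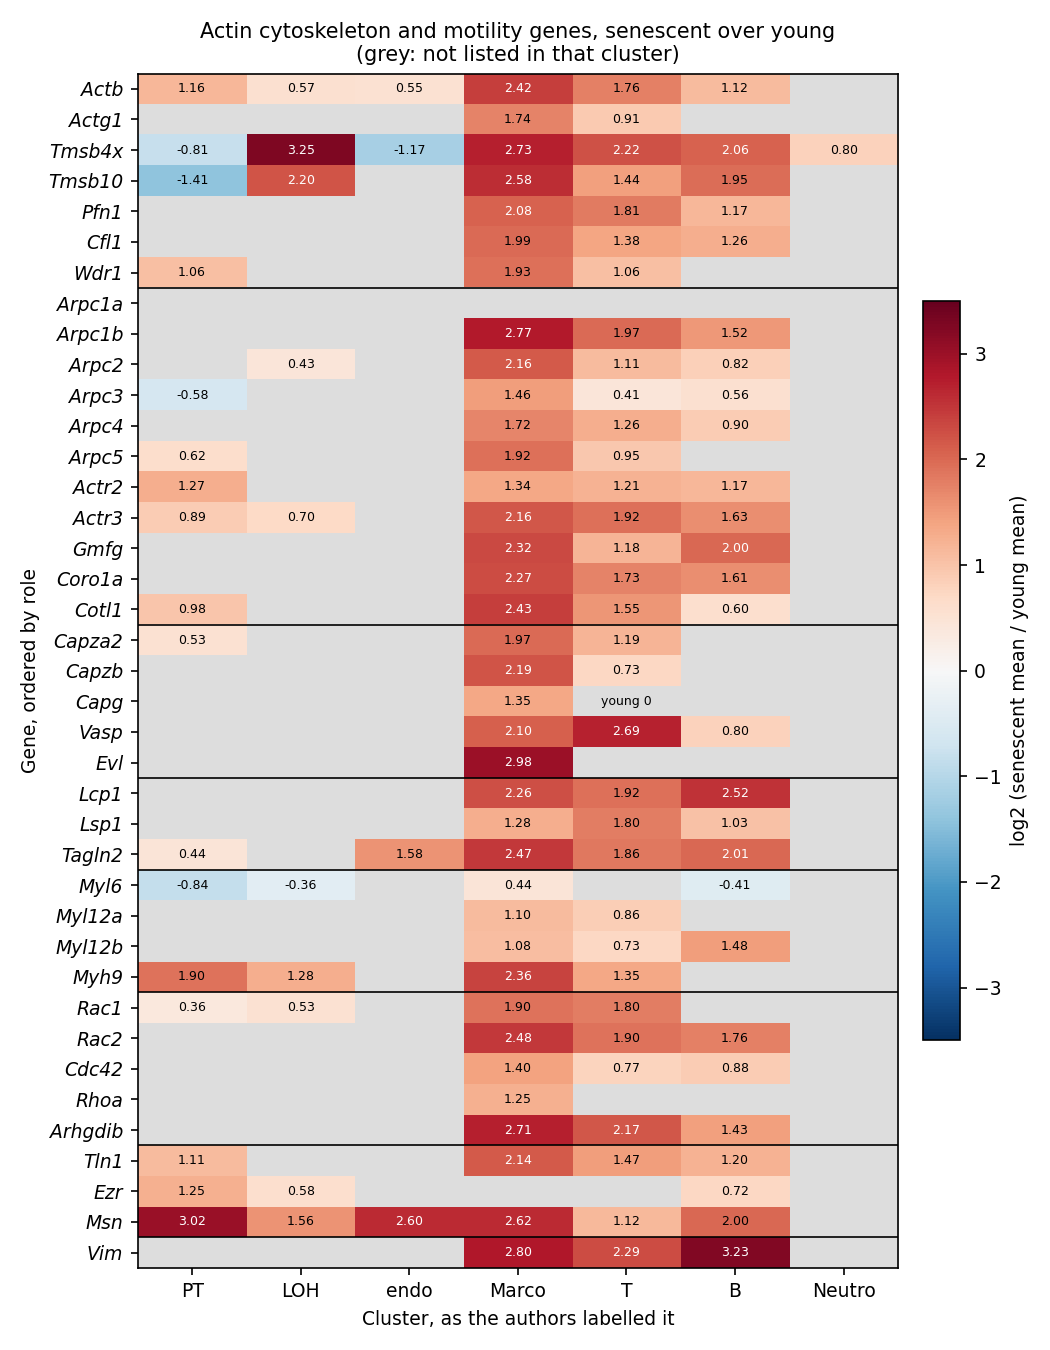
Each cell gives the log2 ratio of the senescent to the young mean for 1 gene (rows, grouped by role) in 1 cluster (columns), grey marks pairs that were not listed, and Capg in T, listed at 0 in young cells, is marked young 0. Marco, T and B are red throughout except for Myl6 in B at -0.41 and the Capg cell, whereas PT holds 4 blue cells, from -0.58 for Arpc3 to -1.41 for Tmsb10; relative to leukocyte markers the medians of Marco, T and B were negative.

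Among the genes for actin and its monomers, Actb, which encodes beta-actin, was higher in the senescent library in all 6 clusters that listed it, but lower there relative to all listed genes in PT and relative to leukocyte markers in Marco, T and B. Actb had a mean of 116 in senescent and 21.8 in young Marco cells, a 5.35-fold difference. In T it had means of 83.3 in senescent and 24.7 in young cells, and in B of 57.8 in senescent and 26.6 in young cells. Its fold was 3.38 in T, 2.17 in B and 2.23 in PT, and smaller in LOH (1.48) and endo (1.46). Actb means were 14.5 in senescent and 6.5 in young PT cells, 17.3 in senescent and 11.7 in young LOH cells, and 19.9 in senescent and 13.6 in young endo cells. In the young library Actb thus spanned 6.5 to 26.6 over clusters, with Marco, T and B close together, whereas in the senescent library these 3 clusters lay apart and in the order Marco, T, B. Actg1, which encodes the other cytoplasmic actin, a protein nearly identical to beta-actin, was listed in Marco and T only. It had means of 18.3 in senescent and 5.47 in young Marco cells and of 11.3 in senescent and 6.01 in young T cells. The log2 ratio of Actb exceeded that of Actg1 by 0.68 in Marco and by 0.84 in T.

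Tmsb4x and Tmsb10, which encode the monomer-holding proteins thymosin beta-4 and beta-10, differed in direction between clusters. Tmsb4x was the only gene of the set listed in all 7 clusters. Its means were 199 in senescent and 30.1 in young Marco cells, 198 in senescent and 42.4 in young T cells, and 112 in senescent and 26.9 in young B cells. In Neutro they were 225 in senescent and 129.5 in young cells. In PT, Tmsb4x was lower, at 1.74 in senescent and 3.05 in young cells, and in endo it was also lower, at 11.9 in senescent and 26.8 in young cells. In LOH it was 9.54-fold higher, at 5.05 in senescent and 0.529 in young cells, to which the authors' deposited table gave an adjusted p of 2.71e-06. Tmsb10 had the same directions where it was listed, except relative to leukocyte markers, where Tmsb10 was lower in Marco and T and Tmsb4x was not. It had means of 0.407 in senescent and 1.08 in young PT cells, and of 2.17 in senescent and 0.473 in young LOH cells. In the immune clusters it was higher, at 25.2 in senescent and 4.22 in young Marco cells, 54.6 in senescent and 20.1 in young T cells, and 26.2 in senescent and 6.77 in young B cells.

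The listed leukocyte and macrophage markers had the same direction as the thymosin genes in PT and in LOH. In PT, the leukocyte markers Cd52 (0.306 in senescent and 0.530 in young cells) and Tyrobp (0.219 in senescent and 0.353 in young cells) and the macrophage marker Lyz2 (0.372 in senescent and 0.508 in young cells) were lower. Of the 4 leukocyte markers, 2 were listed in PT, with a summed level of 0.525 in senescent and 0.883 in young cells, and 2 in LOH, with 1.10 in senescent and 0.0726 in young cells. In LOH, Cd52 had means of 0.560 in senescent and 0.0425 in young cells, and Lyz2 of 0.665 in senescent and 0.0783 in young cells. Neutrophil markers shared this direction in LOH but not in PT, since S100a8 and S100a9 had a summed level of 2.05 in senescent and 0.629 in young PT cells and of 5.42 in senescent and 0.0575 in young LOH cells. In endo, where Tmsb4x was lower, 0 of 4 leukocyte markers were listed, and Lyz2 (0.348), S100a8 (1.55) and S100a9 (1.67) were higher in senescent cells, each listed at 0 in young cells. The part of leukocyte RNA in the thymosin values of PT, LOH and endo was not tested.

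The remaining genes of monomer control were listed mainly in the immune clusters. Pfn1, which encodes profilin-1, had means of 21.3 in senescent and 5.05 in young Marco cells, 23.9 in senescent and 6.83 in young T cells, and 14.3 in senescent and 6.37 in young B cells. Cfl1, which encodes the filament-severing protein cofilin-1, had means of 12.3 in senescent and 3.09 in young Marco cells, 9.68 in senescent and 3.73 in young T cells, and 7.51 in senescent and 3.13 in young B cells. For both genes the fold was highest in Marco and lowest in B, at 4.22 and 2.25 for Pfn1 and at 3.98 and 2.40 for Cfl1. Wdr1, whose product helps cofilin to disassemble filaments, was at least 2-fold higher in PT (0.416 in senescent and 0.199 in young cells), Marco (1.24 in senescent and 0.327 in young cells) and T (0.930 in senescent and 0.447 in young cells), but lower relative to all listed genes in PT and to leukocyte markers in Marco and T.

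**Figure D2:**
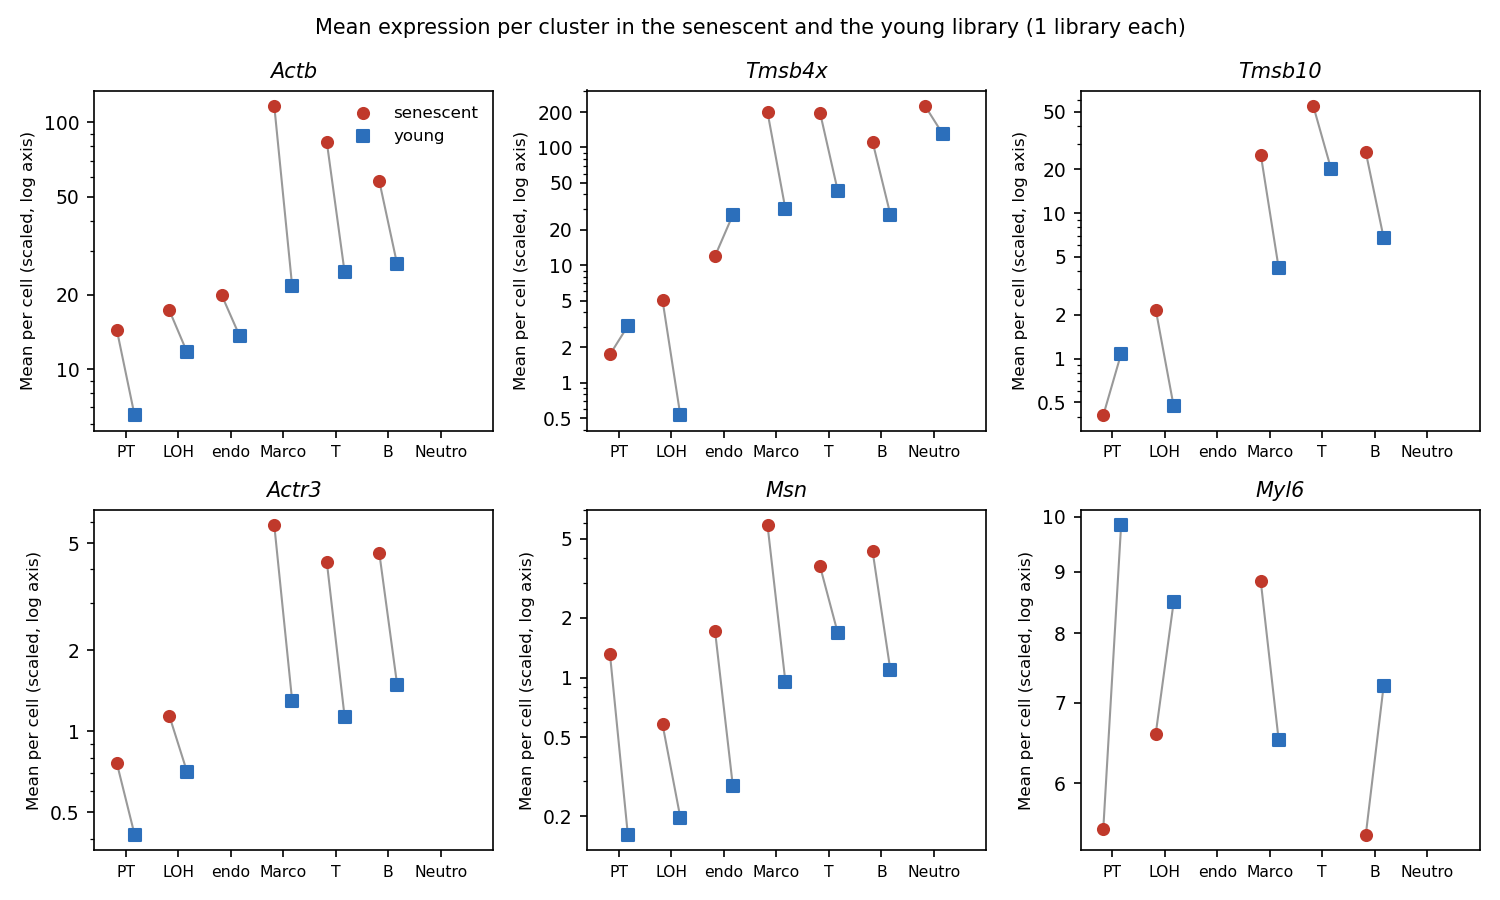
Points give the mean per cell in the senescent (red circles) and the young library (blue squares) for 6 genes in each cluster, on a log axis, with no point where a gene was not listed. Tmsb4x is lower in the senescent library in PT and endo and higher in the other 5 clusters, and Myl6 is lower in 3 of its 4 clusters, although relative to all listed genes it was higher in LOH and B and lower in Marco.

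The genes of the Arp2/3 complex and its regulators were all higher among senescent cells of Marco, T and B, but relative to leukocyte markers only Arpc1b in Marco and Gmfg in B were higher. The subunits differed in their ratios. In Marco, 10 of the 11 genes were listed and all 10 were at least 2-fold higher, with ratios from 2.54 for Actr2 to 6.81 for Arpc1b. Arpc1b, the form of the Arpc1 subunit that prevails in blood cells, had means of 10.0 in senescent and 1.47 in young Marco cells, 4.73 in senescent and 1.20 in young T cells, and 3.38 in senescent and 1.18 in young B cells. Arpc3, another subunit, had means of 6.11 in senescent and 2.22 in young Marco cells, 3.75 in senescent and 2.82 in young T cells, and 4.01 in senescent and 2.72 in young B cells. The log2 ratio of Arpc1b exceeded that of Arpc3 by 1.30 in Marco, 1.56 in T and 0.96 in B. Arpc2 had means of 10.6 in senescent and 2.38 in young Marco cells, 6.27 in senescent and 2.90 in young T cells, 5.09 in senescent and 2.88 in young B cells, and 2.77 in senescent and 2.06 in young LOH cells.

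In PT the Arp2/3 subunits went in different directions. Arpc3 was lower, at 1.48 in senescent and 2.21 in young cells, whereas Actr2 and Actr3, which encode the actin-like subunits Arp2 and Arp3, were higher, Actr3 not so relative to all listed genes. Actr2 had means of 0.798 in senescent and 0.330 in young PT cells, 2.69 in senescent and 1.06 in young Marco cells, 2.45 in senescent and 1.06 in young T cells, and 2.05 in senescent and 0.908 in young B cells. Its ratio varied little over these 4 clusters, from 2.25 in B to 2.54 in Marco. Actr3 had means of 0.765 in senescent and 0.413 in young PT cells, 1.15 in senescent and 0.707 in young LOH cells, 5.84 in senescent and 1.30 in young Marco cells, 4.27 in senescent and 1.13 in young T cells, and 4.6 in senescent and 1.49 in young B cells. Of the regulators, Cotl1 encodes coactosin-like protein, which binds filaments. Cotl1 had means of 0.996 in senescent and 0.505 in young PT cells, 4.01 in senescent and 0.745 in young Marco cells, 2.60 in senescent and 0.887 in young T cells, and 1.19 in senescent and 0.785 in young B cells. Coro1a, a coronin of blood cells, was 4.83-fold higher in Marco, 3.32-fold in T and 3.06-fold in B. Gmfg, whose product removes Arp2/3 branches, was 4.99-fold higher in Marco, 2.27-fold in T and 4.0-fold in B.

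Genes acting at filament ends and in bundles were listed mainly in the immune clusters. Evl, which encodes a filament-elongating protein of the Ena/VASP family, was listed in Marco alone and had the largest ratio of the set there, at 0.560 in senescent and 0.0708 in young cells. Vasp, of the same family, had means of 1.41 in senescent and 0.219 in young T cells and was 4.29-fold higher in Marco. Capg, which encodes a capping protein of macrophages, was listed at 0.471 in senescent and 0.184 in young Marco cells, and in T at 1.52 in senescent and 0 in young cells, so that no fold was computed there. The T values of Vasp and Capg were not called in the authors' deposited table by adjusted p. The capping protein subunit genes Capza2 and Capzb were 3.92-fold and 4.58-fold higher in Marco and 2.29-fold and 1.66-fold higher in T. Lcp1, which encodes the leukocyte bundling protein L-plastin, had means of 6.30 in senescent and 1.32 in young Marco cells, 4.50 in senescent and 1.19 in young T cells, and 3.40 in senescent and 0.593 in young B cells. Tagln2, which encodes the actin-binding protein transgelin-2, was listed in 5 clusters and was higher in each, but not relative to ribosomal protein genes in PT or to leukocyte markers in Marco and T. It had means of 0.903 in senescent and 0.665 in young PT cells, 1.92 in senescent and 0.645 in young endo cells, 3.92 in senescent and 0.708 in young Marco cells, 5.02 in senescent and 1.38 in young T cells, and 5.18 in senescent and 1.28 in young B cells.

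Myosin II genes did not share a direction. Myl6, which encodes the essential light chain, was lower in 3 of the 4 clusters that listed it, although relative to all listed genes it was higher in LOH and B and lower in Marco. Its means were 5.49 in senescent and 9.84 in young PT cells, 6.6 in senescent and 8.49 in young LOH cells, and 5.44 in senescent and 7.24 in young B cells. In Marco it was 1.35-fold higher, at 8.84 in senescent and 6.52 in young cells, the smallest ratio among the 37 genes listed there. Myh9, which encodes the heavy chain of non-muscle myosin IIA, was higher wherever it was listed, though not relative to leukocyte markers in Marco and T. Its means were 0.430 in senescent and 0.115 in young PT cells, 1.29 in senescent and 0.532 in young LOH cells, 2.26 in senescent and 0.442 in young Marco cells, and 2.72 in senescent and 1.06 in young T cells. The regulatory light chain genes Myl12a and Myl12b had nearly equal ratios in Marco, at 2.14 and 2.11, and differed in log2 ratio by 0.02 there. In T their ratios were 1.82 and 1.66, and in B Myl12b alone was listed, 2.78-fold higher. Their coding sequences are close, and how reads shared between them were counted was not given in the sources used here.

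Among the signalling genes of the set, Rac1, the widely expressed Rac gene, was higher in the 4 clusters that listed it, but lower relative to ribosomal protein genes in PT and to leukocyte markers in Marco and T. Rac1 had means of 0.961 in senescent and 0.746 in young PT cells, 1.05 in senescent and 0.729 in young LOH cells, 4.16 in senescent and 1.11 in young Marco cells, and 1.92 in senescent and 0.552 in young T cells. Rac2, its counterpart of blood cells, was higher in Marco, T and B, but not relative to leukocyte markers. Rac2 had means of 2.88 in senescent and 0.517 in young Marco cells, 8.85 in senescent and 2.37 in young T cells, and 5.35 in senescent and 1.58 in young B cells. The log2 ratio of Rac2 exceeded that of Rac1 by 0.58 in Marco and by 0.10 in T. Arhgdib, of blood cells, had means of 6.71 in senescent and 1.02 in young Marco cells, 9.95 in senescent and 2.21 in young T cells, and 9.18 in senescent and 3.41 in young B cells. Cdc42 and Rhoa had smaller ratios in Marco, at 2.64 and 2.37. Rhoa was listed in no other cluster, and Cdc42 was 1.70-fold higher in T and 1.84-fold in B.

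Among the linkers of filaments to the membrane, Msn, which encodes moesin, had the largest ratio of the set in PT and in endo. Msn had means of 1.31 in senescent and 0.162 in young PT cells, an 8.10-fold difference, and of 1.72 in senescent and 0.284 in young endo cells. Its means were 0.582 in senescent and 0.197 in young LOH cells, 5.86 in senescent and 0.954 in young Marco cells, 3.64 in senescent and 1.67 in young T cells, and 4.34 in senescent and 1.09 in young B cells. The PT mean of Msn in senescent cells, 1.31, lay below its senescent means in Marco, T and B, from 3.64 to 5.86. It lay within the range of the young means of those clusters, from 0.954 to 1.67, which come from the other library. Ezr, which encodes ezrin, the related linker of the tubule brush border, had means of 2.00 in senescent and 0.838 in young PT cells, 2.74 in senescent and 1.83 in young LOH cells, and 3.05 in senescent and 1.85 in young B cells. The log2 ratio of Msn exceeded that of Ezr by 1.76 in PT, 0.98 in LOH and 1.28 in B. Among the blood-cell markers of PT given above, Cd52, Tyrobp and Lyz2 were lower in the senescent library, and S100a8 (0.928 in senescent and 0.316 in young cells) and S100a9 (1.13 in senescent and 0.313 in young cells) were higher, as Msn was, and their part in the Msn values was not tested. Tln1, which encodes the integrin activator talin-1, had means of 0.891 in senescent and 0.412 in young PT cells, 5.32 in senescent and 1.20 in young Marco cells, 3.21 in senescent and 1.16 in young T cells, and 2.08 in senescent and 0.904 in young B cells. Vim, which encodes the intermediate filament protein vimentin, was among the genes with the largest ratios in Marco, T and B. Vim had means of 6.82 in senescent and 0.976 in young Marco cells, 5.67 in senescent and 1.16 in young T cells, and 5.20 in senescent and 0.555 in young B cells, where the authors' deposited table gave an adjusted p of 0.533.

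Against other genes of the same clusters, the higher level of the set in Marco, T and B depended on what it was set beside. On the log2 scale with a pseudocount of 1, the median of the listed genes of the set was 1.42 in Marco, 0.95 in T and 1.04 in B, beside medians of 0.23, -0.11 and -0.27 over all listed genes of those clusters. Cytosolic ribosomal protein genes had medians of 1.18 in Marco, 0.95 in T and 1.04 in B. The 4 leukocyte markers Ptprc, Cd52, Laptm5 and Tyrobp, of which 3 were listed in B, had medians of 2.28 in Marco, 1.64 in T and 1.59 in B. Macrophage markers had a median of 1.90 in Marco, T cell markers of 1.57 in T and B cell markers of 1.13 in B. With the pseudocount of 1, the median of the set lay above that of ribosomal protein genes in Marco and level with it in T and B. It lay below that of leukocyte markers in all 3, and below that of the cell type's own markers, narrowly so in B. Without a pseudocount, single leukocyte markers had log2 ratios from 2.37 (Ptprc) to 3.05 (Cd52) in Marco and from 1.88 (Cd52) to 2.11 (Ptprc) in B. In T they ran from 0.65 (Tyrobp) to 2.92 (Laptm5), so comparisons with them depend on the markers picked. Counts of genes above or below another list, here and elsewhere, use ratios without a pseudocount. On these, 33 of 37 genes of the set were above the median of the ribosomal protein genes in Marco, 27 of 34 in T and 18 of 27 in B, whereas 32 of 37 genes were lower than the leukocyte markers in Marco, 29 of 34 in T and 20 of 27 in B. Being below the leukocyte markers was not particular to the set. In the other cytoskeleton lists described below, 58 of 74 genes were lower than these markers in Marco, 44 of 54 in T and 26 of 33 in B. Above the ribosomal protein genes were 47, 26 and 10 of them. The median of all listed genes (0.91 in Marco, -0.52 in T and -1.15 in B) was below both references. The share of all listed genes past either reference was not computed. The genes of the set above the leukocyte markers were Tmsb4x, Arpc1b, Evl, Arhgdib and Vim in Marco, and Tmsb4x, Capg, Vasp, Arhgdib and Vim in T. In B they were Tmsb4x, Tmsb10, Gmfg, Lcp1, Tagln2, Msn and Vim. Tmsb4x and Vim were thus above the leukocyte markers in all 3 clusters, Tmsb4x narrowly so in Marco (2.73 against 2.71). The pseudocount changes this order, since with it Actb (2.37) and Tmsb10 (2.33) lay above the leukocyte median of 2.28 in Marco and Vim (1.98) below it.

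In PT, with the pseudocount of 1, the median of the listed genes of the set was 0.29, beside 0.23 for all listed genes and 0.65 for ribosomal protein genes, and it turned negative, to -0.36, when scaled to ribosomal protein genes. With a pseudocount of 0.1 the median in PT was 0.75. In LOH, with the pseudocount of 1, the median of the set was 0.40, beside -0.11 for all listed genes and 0.46 for ribosomal protein genes. Scaled to the ribosomal protein genes it was -0.057. On ratios without a pseudocount, 9 of 17 genes in PT were above the ribosomal protein genes, among them Msn, Myh9, Actr2, Ezr, Tln1 and Actb, and in LOH 8 of 10 were. Relative to all listed genes of PT, whose median log2 ratio was higher at 1.22, 4 of 17 were above (Actr2, Myh9, Ezr and Msn). The 10 genes known chiefly from blood cells were Arpc1b, Gmfg, Coro1a, Cotl1, Capg, Evl, Lcp1, Lsp1, Rac2 and Arhgdib. Of these, 1 (Cotl1) was listed in PT, 0 in LOH and endo, 10 in Marco, 9 in T and 8 in B. Of the other 29 genes of the set, 16 were listed in PT, 10 in LOH, 4 in endo, 27 in Marco, 25 in T and 19 in B. The level of a gene that is not listed is not known. With the pseudocount of 1, the median log2 ratio of the blood-cell genes was 1.44 in Marco, close to the 1.42 of the other genes of the set. In T it was 1.34 against 0.85, and in B 1.21 against 1.01.

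**Figure D3:**
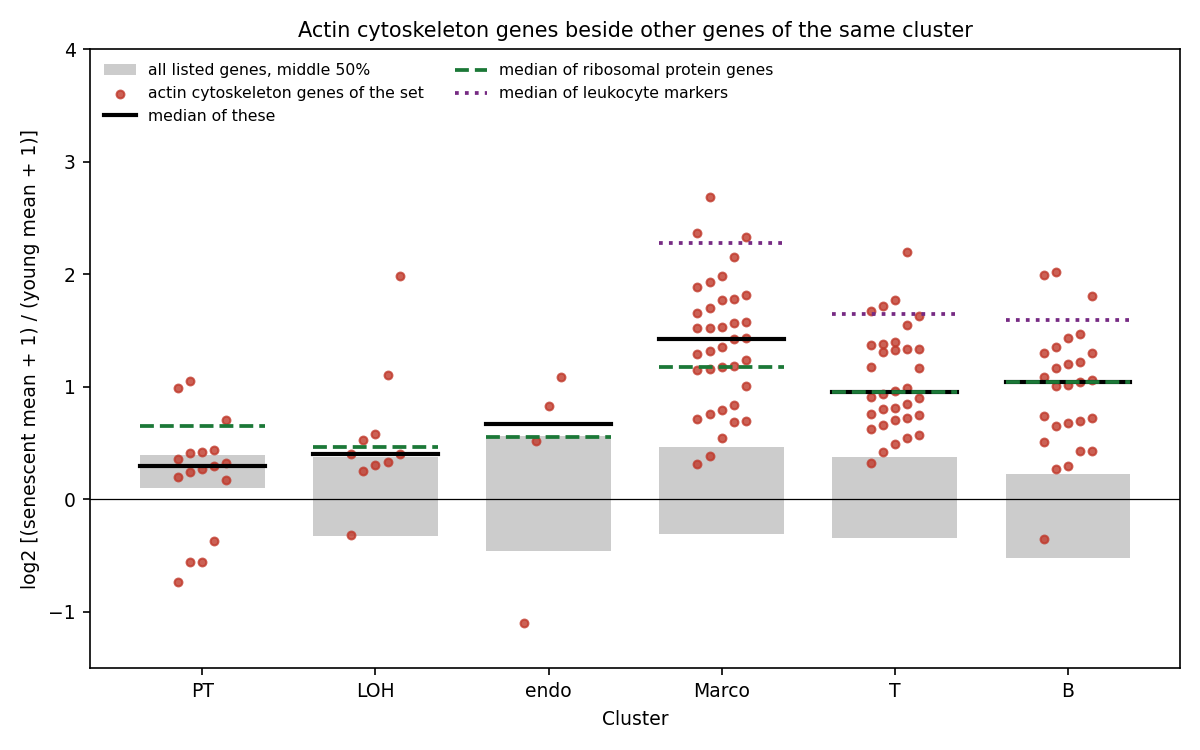
Red points give the log2 ratio of the senescent to the young mean, each with a pseudocount of 1, for the listed genes of the set in 6 clusters, black bars their median, grey boxes the middle 50% of all listed genes, green dashes ribosomal protein genes and purple dots leukocyte markers. In Marco, T and B the black bars (1.42, 0.95 and 1.04) lie above the grey boxes but below the leukocyte markers (2.28, 1.64 and 1.59).

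Other cytoskeleton genes were read from 11 lists with 110 genes, of which 94 were listed in at least 1 cluster. In PT, 47 of 53 listed genes were higher and 6 lower, and 37 were at least 2-fold higher and 1 at least 2-fold lower, where 57.2% of all listed genes were at least 2-fold higher, 5.6% at least 2-fold lower and 78.4% higher by any size. Relative to all listed genes of PT, 30 of the 53 were higher, and relative to ribosomal protein genes 40 were. The lists of crosslinking and cortex genes (6 of 6) and of integrin adhesion genes (9 of 9) held no lower gene in PT, and relative to all listed genes 3 of the integrin adhesion genes and none of the crosslinking and cortex genes were lower. Diaph1, which encodes a formin, had means of 0.408 in senescent and 0.0720 in young PT cells, and Ppp1r12a, which encodes the targeting subunit of myosin phosphatase, of 0.538 in senescent and 0.0849 in young PT cells. Tpm3 and Tpm4, which encode tropomyosins, were 2.96-fold and 4.42-fold higher in PT.

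In Marco, 56 of 74 listed genes of these lists were higher and 18 lower (16 and 58 relative to leukocyte markers), and 52 were at least 2-fold higher and 17 at least 2-fold lower. Over all listed genes of Marco 58.3% were higher, 47.6% at least 2-fold higher and 31.5% at least 2-fold lower. In T, 33 of 54 were higher and 21 lower (10 and 44 relative to leukocyte markers), of which 26 and 14 were at least 2-fold, beside 45.4% higher, 26.2% at least 2-fold higher and 38.6% at least 2-fold lower over all. In B, 14 of 33 were higher and 19 lower (7 and 26 relative to leukocyte markers), of which 10 and 14 were at least 2-fold, beside 71.7% lower, 16.3% at least 2-fold higher and 54.1% at least 2-fold lower over all. In LOH, 6 of 11 were higher and 5 lower (47.8% and 52.2% over all), 2 each by at least 2-fold (27.5% and 21.1% over all). In endo, 4 of 9 were higher and 5 lower (48.8% and 51.2% over all), of which 3 and 4 were at least 2-fold (41.9% and 33.1% over all). In Neutro, 1 of 6 was higher and 5 were lower, all by at least 2-fold, near the 93.4% at least 2-fold lower over all. The integrin adhesion list had 6 higher and 1 lower in Marco, 6 higher and 4 lower in T and 1 higher and 2 lower in B, and relative to leukocyte markers 2 of 7 were higher in Marco, 1 of 10 in T and 0 of 3 in B. Fermt3, which encodes the integrin activator kindlin-3, was 15.5-fold higher in Marco, at 2.26 in senescent and 0.146 in young cells, and Itgb2, which encodes the beta-2 integrin of leukocytes, was 8.81-fold higher, at 2.57 in senescent and 0.292 in young cells. Hcls1, a cortactin relative of blood cells, was 6.27-fold higher in Marco, Flna, which encodes the crosslinker filamin A, 6.61-fold, and Twf2, a twinfilin gene, 12.9-fold. Tpm3 was 6.17-fold higher in Marco, 3.93-fold in T and 5.40-fold in B.

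The brush border list was lower in Marco, T and B, except for 1 gene each in T (Espn) and B (Slc9a3r1) relative to all listed genes. All 6 listed brush border genes were at least 2-fold lower in Marco, 6 of 6 were lower in T, 5 of them at least 2-fold, and 4 of 4 were lower in B, 3 of them at least 2-fold, beside 41.7%, 54.6% and 71.7% lower over all listed genes of Marco, T and B. In PT 5 of 6 were higher, near the 78.4% over all, and relative to all listed genes 1 of 6 was. Pdzk1, which encodes a scaffold of tubule transporters, had means of 0.232 in senescent and 3.16 in young Marco cells, 0.201 in senescent and 2.29 in young T cells, and 0.284 in senescent and 3.15 in young B cells. Cdhr5, which encodes a cadherin that links microvilli, had means of 0.0838 in senescent and 0.826 in young Marco cells but of 1.43 in senescent and 0.673 in young PT cells. The proximal tubule markers of these clusters, given above, were lower along with the brush border genes, and their part in these values was not tested. Dstn, which encodes destrin, a relative of cofilin, was also lower, at 0.297 in senescent and 0.920 in young T cells and at 0.403 in senescent and 2.02 in young B cells, whereas Cfl1 was higher in both.

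**Figure D4:**
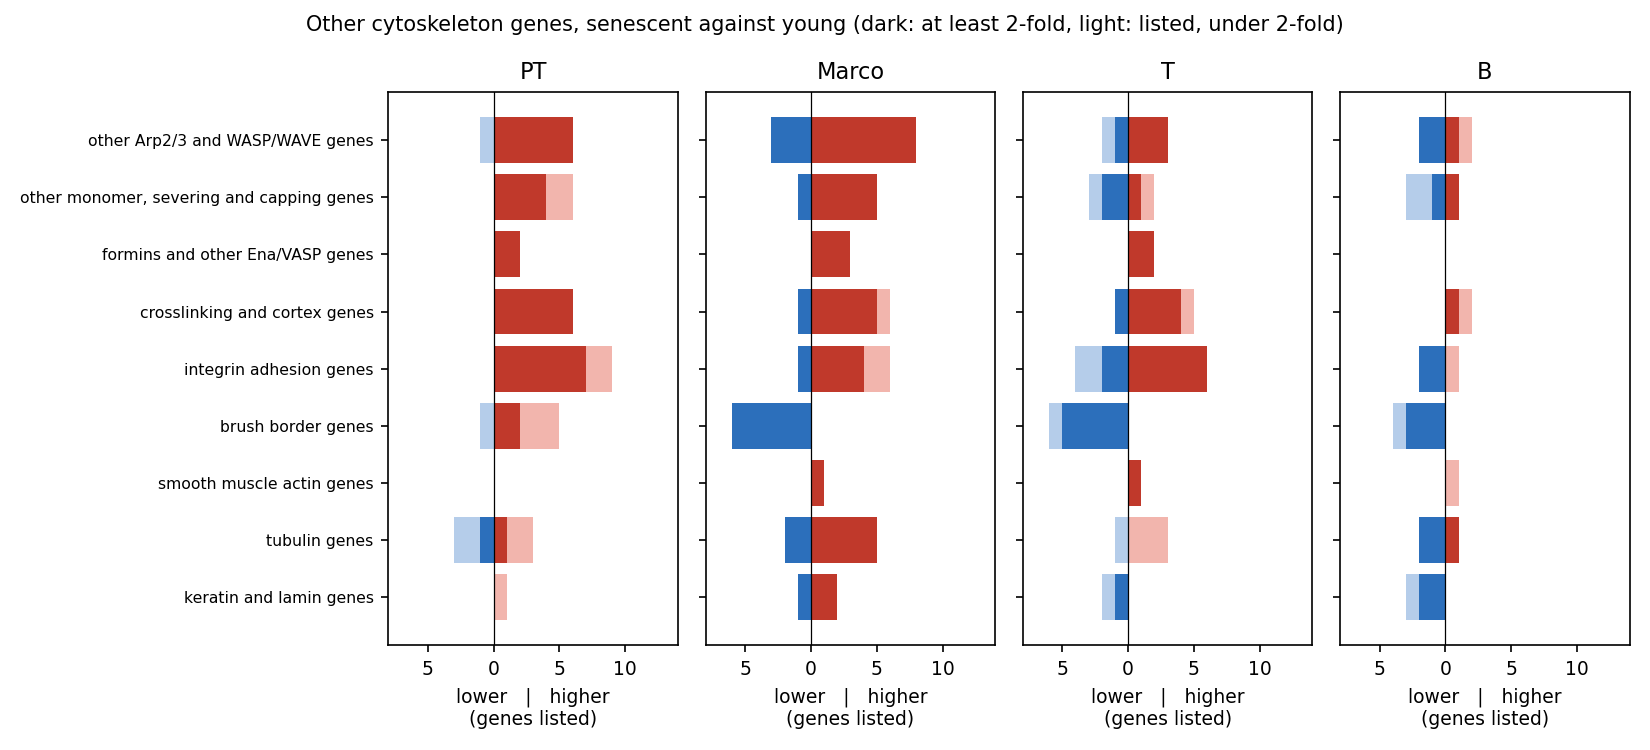
Bars give the number of genes listed as higher (right) or lower (left) in the senescent library for lists of other cytoskeleton genes in PT, Marco, T and B, with at least 2-fold differences in dark shades. Brush border genes point to the left in Marco (6 lower), T (6 lower) and B (4 lower) and mostly to the right in PT (5 higher and 1 lower, but 1 and 5 relative to all listed genes).

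In the RefSeq annotation of build GRCm38, the same primary build as mm10, Actb lies on chromosome 5 from 142903115 to 142907976, Tmsb4x on chromosome X from 167207093 to 167213479, Tmsb10 on chromosome 6 from 72957347 to 72958748, Msn on chromosome X from 96096045 to 96168553, Myl6 on chromosome 10 from 128490859 to 128493886 and Vim on chromosome 2 from 13574311 to 13582826. All 39 genes are annotated as protein coding, and each value is for the whole gene. The spans of 11 of them overlap another annotated gene, among them Actb, Pfn1, Arpc3, Lcp1 and Msn, and no source used here gives the strand used in counting or the handling of reads shared with near-identical copies. Of the 38 listed genes, 33 carried a gene ontology term that names actin in the deposited table and 21 were placed in the pathway for regulation of the actin cytoskeleton, and Tagln2, Myl6 and Vim had neither.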

How the data were processed

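The deposited signal columns hold mean expression per cell of a cluster, 1 column per library, averaged by the authors on a scale whose factor was not given in the sources used here. Per the submitters' processing notes, Cell Ranger 2.1.1 and build mm10 were used, and the filters on cells, doublets, free RNA, clustering and test were not given. Each deposited log2 value of the set matched, within 0.01, log2 of the ratio of senescent to young means with 0.0001 added to both. Columns were assigned by the labels' descriptions, because the contrast name in the table names neither group. The p-value columns are the authors' and compare cells.

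Computed here, in Python 3.11.15 with numpy 2.4.6 and pandas 2.3.3, were ratios of means, counts of genes past a 2-fold ratio with a higher mean of at least 0.1, and medians of log2 ratios with a pseudocount of 1. The counting step was run on simulated data with planted differences larger than the 2-fold threshold. This checks the code and not how well the counts hold for real cells. The depth is not known and no counting interval could be given, and no test between groups was run with 1 library each. Symbols matched the RefSeq gene table for all 39 genes.

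The genes and lists were chosen with earlier results of these data known. Means are given in full for genes of the set listed in at least 4 clusters and for the 3 with the largest log2 ratio per cluster. Further genes of the set named for their role were chosen after their values were seen. For the other lists, the naming rule picked up to 4 genes per list with a mean of at least 1. Not all of the genes it picked are described, and some are given by fold alone or in only some of their clusters. Marker genes are named beside the results they touch. Alternatives were other folds, filters, pseudocounts and scalings, and the authors' adjusted p, of which scaling to leukocyte markers was chosen after seeing the data. Results for 2 of the 11 other lists are included in the totals but not reported here one by one.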

Additional observations from a re-analysis of the deposited data

Results flagged for a closer look

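With 1 library per group, a gene was singled out where its ratio, with neither mean at 0, pointed one way in one cluster and the opposite way in another, and none of these differences was tested. The genes considered were the 39 of the set and those of the other lists that the naming rule picks, 78 in all, and the remaining genes of those lists were not examined for this. Of the 78, 8 met it, 4 of them in the set of actin cytoskeleton genes. The log2 ratio of Tmsb4x was 4.42 higher in LOH (3.25) than in endo (-1.17), and that of Tmsb10 was 3.99 higher in Marco (2.58) than in PT (-1.41). For Arpc3 the log2 ratio in Marco exceeded that in PT by 2.04, and for Myl6 by 1.28. Among other cytoskeleton genes, Cdhr5 of the brush border differed by 4.39 between PT (1.09) and Marco (-3.3), and the tubulin gene Tuba4a by 1.89 between T (0.40) and Marco (-1.49). Twf2 differed by 6.55 between Marco and Neutro, and Add1, which encodes adducin, by 3.76 between PT and Neutro, where 93.7% of all listed genes were lower. Actn1, which encodes an alpha-actinin, had no ratio in endo, where it was listed at 0.355 in senescent and 0 in young cells, and was lower in Neutro, at 1.23 in senescent and 8.86 in young cells.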

How the results depend on the processing

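No paired analysis was possible because each group has 1 library, which also leaves no replicate to leave out. The counts of genes at least 2-fold higher or lower (in the set, and in the 11 other lists) depended on the settings as follows, where each count not named was within 1.5 times. At a fold of 1.5, genes of the set were lower in PT for 3 and higher in Neutro for 1, and genes of the other lists were lower in PT for 5 and higher and lower in LOH for 5 each. At a fold of 3, genes of the set were higher for 2 in PT and in LOH, 1 in endo, 15 in T and 10 in B and lower for 0 in PT and endo. At that fold the other lists gave 20 higher and 0 lower in PT, 1 higher and 1 lower in LOH, 17 higher and 8 lower in T and 8 lower in B. Where the adjusted p of the authors' deposited table was required, the set gave 2 higher in LOH, 15 in T, 4 in B and 0 higher and lower in endo, and the other lists gave 0 higher and 1 lower in LOH, 0 both ways in endo and Neutro, 3 higher and 8 lower in T and 0 higher and 2 lower in B. With a mean of at least 1, the set gave 3 higher in PT, and the other lists gave 9 higher in PT, 0 in LOH and endo, 27 higher and 3 lower in Marco, 1 lower in T and 3 lower in B. With a pseudocount of 1, the set gave 1 higher and 0 lower in PT, 2 higher in LOH, 1 in endo and 15 in T, and the other lists gave 1 higher and 0 lower in PT, 0 both ways in LOH, 0 higher in endo, 17 higher and 1 lower in Marco, 6 higher and 1 lower in T and 6 higher and 2 lower in B. A pseudocount of 0.1 gave 1 higher in LOH and 7 lower in T for the other lists. No filter on low values moved no count past 1.5 times.

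Scaled to ribosomal protein genes, whose median log2 ratios were 0.68 in PT, 0.52 in LOH, 1.25 in Marco, 0.99 in T and 1.09 in B, the set gave 2 higher and 4 lower in PT, 15 higher in Marco, 5 in T, and 2 higher and 1 lower in B, and the other lists gave 18 higher and 6 lower in PT, 1 higher and 5 lower in LOH, 27 higher in Marco and 14 in T. Scaled to all listed genes, with medians of 1.22 in PT, -0.39 in LOH, -0.43 in endo, 0.91 in Marco, -0.52 in T, -1.15 in B and -5.10 in Neutro, the set gave 1 higher and 4 lower in PT, 0 lower in endo and 1 higher in Neutro, and the other lists gave 9 higher and 6 lower in PT, 5 higher and 1 lower in LOH, 32 higher in Marco, 9 lower in T, 8 lower in B and 5 higher and 0 lower in Neutro. Scaling to ribosomal protein genes was not run in endo, where 4 of them were listed, or in Neutro, where 0 were. Scaled to leukocyte markers, an alternative chosen after seeing the data, with medians of 2.71 in Marco, 2.1 in T and 1.92 in B, the set gave 0 higher and 9 lower in Marco, 1 higher and 8 lower in T and 1 higher and 8 lower in B, and the other lists gave 5 higher and 35 lower in Marco, 1 higher and 31 lower in T and 2 higher and 22 lower in B. With a pseudocount of 1 throughout, the median log2 ratio of the set turned negative when scaled to ribosomal protein genes in PT (-0.36), LOH (-0.057) and T (-0.0011). On ratios without a pseudocount, however, 9 of 17 genes in PT, 8 of 10 in LOH and 27 of 34 in T were above the ribosomal protein genes. With the pseudocount of 1, the median was also negative when scaled to leukocyte markers in Marco (-0.86), T (-0.69) and B (-0.55). Beyond what scaling and fewer genes give by construction, the cause was not tested. Depth was not given, so values near 0 such as those of Evl and Capg have no stated floor.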

Other observations

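Tubulin genes, which belong to the other main filament system of the cell, were split in the same clusters. Tubb4b was lower in the senescent library in all 5 clusters that listed it, except relative to all listed genes in B, at 1.46 in senescent and 3.25 in young PT cells, 0.816 in senescent and 1.40 in young LOH cells, 0.437 in senescent and 1.79 in young Marco cells, 1.11 in senescent and 1.73 in young T cells, and 1.16 in senescent and 2.43 in young B cells. Tubb5, by contrast, was higher in 4 of 4 clusters, but lower relative to leukocyte markers in Marco, T and B, to ribosomal protein genes in PT and T and to all listed genes in PT, with 2.15 in senescent and 0.471 in young Marco cells. Keratin genes of simple epithelia stood out in endo, a cluster in which Tmsb4x was lower and the levels of endothelial markers are not known. There Krt18 had means of 1.42 in senescent and 12.5 in young cells, and Krt19 of 1.32 in senescent and 11.6 in young cells. Krt7 had means of 1.05 in senescent and 7.23 in young endo cells. The authors' deposited table gave each of these keratins an adjusted p of 1 in endo.

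Genes outside the set that the deposited table places in the pathway for regulation of the actin cytoskeleton were a further, wider list, read after the values above were known. In PT, 70 of 74 were higher (78.4% of all listed genes), 56 of them at least 2-fold (57.2% of all), where the median log2 ratio of all listed genes was 1.22. In Marco, 52 of 66 were higher, 45 of them at least 2-fold (58.3% and 47.6% of all listed genes). The other 14 in Marco were all at least 2-fold lower (31.5% of all). In LOH, 16 of 17 were higher (47.8% of all), and in T 26 were higher and 24 lower (45.4% and 54.6% of all). In B, 8 of 22 were higher and 14 lower, 12 of them at least 2-fold lower, beside 71.7% lower and 54.1% at least 2-fold lower over all listed genes. In endo, 9 of 13 were higher and 4 lower (48.8% and 51.2% of all), and in Neutro 5 of 5 were lower (93.7% of all).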
